A study of Mus musculus with 12 samples.

Results

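The genes described here encode 8 transporters that carry amino acids across the plasma membrane: Slc7a5, Slc3a2, Slc7a11, Slc7a1, Slc1a5, Slc1a4, Slc38a2 and Slc38a1. They were chosen by name, and all of their probe sets that carry a single gene symbol were used, which gave 10 of 20380 such probe sets and 8 of 12393 genes. The samples were tumours that cells of C26, a colon carcinoma line from the mouse, had formed under the skin of Balb/c mice aged 6 weeks. Tumours were taken 48 h after 1 of 3 treatments, given on day 8 after injection of the cells, when the tumours measured about 50 mm3. CP-Dox is doxorubicin, a DNA-intercalating drug that traps topoisomerase II, attached to a chimeric polypeptide. Dox is the free drug, and PBS is the saline control. Each group held 4 mice, with 1 array per tumour, and the labels state no genetic change in any group. The p-values measure the spread between these tumours. No group received the polypeptide without drug, and no dose is stated in the labels.

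Amino acid transporters of this kind include exchangers and sodium-coupled transporters. Slc3a2 encodes the glycoprotein heavy chain (4F2hc, CD98) that brings light chains to the cell surface. Slc7a5 encodes the light chain that exchanges large neutral amino acids such as leucine, and Slc7a11 encodes the light chain that exchanges cystine for glutamate, which feeds glutathione synthesis. Slc7a1 encodes a carrier of arginine and lysine that works without the heavy chain. Slc1a5 and Slc1a4 encode sodium-dependent exchangers of small neutral amino acids, the first of which takes up glutamine. Slc38a2 and Slc38a1 encode sodium-coupled transporters of glutamine and alanine, and Slc38a2 is known to be induced when amino acids run short. Many tumours carry more of these proteins than normal tissue, and the transcription factor ATF4, which acts in the integrated stress response, is known to induce several of the genes.

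ATF4 binds a DNA element whose letters were searched as TGATGNAA on both strands. Promoter windows from 250 bases before to 50 bases after the annotated start were found for 5 of the 8 genes, with 6 windows in all (RefSeq, GRCm38.p6). The element was present in 3.97% of 32851 windows of that length. It matched the window of Slc7a11 on each strand, at positions -66 and -47 relative to the start, and the window of Slc1a4 once, at position -4. No match was found in the windows of Slc3a2, Slc7a1 and Slc38a2. Bases outside the windows were not searched, and Slc7a5, Slc1a5 and Slc38a1 had no window, so elements elsewhere in these genes would be missed. The windows of the 2 genes with a match are shown, with that of Slc3a2, the heavy chain gene, which held no match. Capitals mark the matches.
Slc7a11 (chr3:50443564-50443863, minus strand): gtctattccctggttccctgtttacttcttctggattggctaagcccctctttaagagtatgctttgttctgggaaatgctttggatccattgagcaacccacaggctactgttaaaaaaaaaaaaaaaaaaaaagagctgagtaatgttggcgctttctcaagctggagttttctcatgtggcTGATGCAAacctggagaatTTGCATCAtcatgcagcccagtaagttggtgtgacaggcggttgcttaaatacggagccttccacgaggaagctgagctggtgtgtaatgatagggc
Slc1a4 (chr11:20332664-20332963, minus strand): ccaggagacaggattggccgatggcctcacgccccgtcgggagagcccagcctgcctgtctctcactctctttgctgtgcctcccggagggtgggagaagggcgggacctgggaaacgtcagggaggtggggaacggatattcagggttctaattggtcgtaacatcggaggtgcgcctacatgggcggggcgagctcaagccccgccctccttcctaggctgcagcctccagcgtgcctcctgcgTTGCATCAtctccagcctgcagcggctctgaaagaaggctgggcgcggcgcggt
Slc3a2 (chr19:8713848-8714147, minus strand): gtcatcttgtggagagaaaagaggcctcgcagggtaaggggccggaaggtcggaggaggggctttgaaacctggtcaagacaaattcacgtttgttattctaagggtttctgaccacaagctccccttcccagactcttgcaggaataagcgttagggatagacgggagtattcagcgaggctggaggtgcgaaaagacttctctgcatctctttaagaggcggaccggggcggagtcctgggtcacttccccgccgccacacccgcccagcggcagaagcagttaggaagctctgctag

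The other motifs searched were TGACNNNGC, the core of the element bound by the antioxidant factor NRF2, and CACGTG, the E-box bound by MYC, again on both strands. The first was present in 12.4% of windows and matched those of Slc38a2, at position -27, and of Slc7a1, at position -11. CACGTG was present in 7.15% of windows and in none of the 6. No match overlapped another. These matches describe letters in a window and were not tested for binding.

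Signals were summarised by RMA and are given as log2 values, on which a difference of 1 is a 2-fold change. Each gene is represented by its probe set with the highest mean, and only Slc1a4 had more than 1. Fold changes come from limma and are given on the log2 scale ± the standard error of the fit, with n = 4 tumours per group, and a gene is said to have risen, fallen or changed where p was under 0.05 after adjustment over all 12393 genes. Nothing in the labels describes the tumours as dissected free of host tissue. Of the 11 measured markers of colon epithelium, 5 spanned more than 1 log2 unit over the 12 arrays: Krt18 (5.74 to 10.33), Krt8 (9.17 to 12.05), Cdh1 (5.27 to 7.88), Epcam (5.29 to 7.87) and Krt20 (4.49 to 6.56). The others stayed within narrow ranges, namely Cldn3 (6.65 to 7.11), Cdx2 (5.06 to 5.44), Krt19 (4.61 to 5.05), Cldn7 (4.45 to 5.04), Vil1 (4.24 to 4.62) and Cdx1 (4.01 to 4.43). Levels of different probe sets cannot be ranked against each other, so these values do not settle how far the tumours kept the identity of colon epithelium. Some tumours stood apart. CP-Dox replicate 2 correlated with the rest of its group at a mean of 0.948, compared with 0.971 to 0.977 for the other CP-Dox arrays. The mean of 14 measured keratinocyte and skin markers lay 2.72 and 4.02 above the PBS mean in CP-Dox replicates 1 and 3 and between -0.13 and 0.13 in the other arrays. The mean of 15 skeletal muscle markers ranged from -0.78 to 1.86 in CP-Dox, from -2.51 to 1.60 in Dox and from -2.57 to 3.41 in PBS tumours.

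**Figure D1:**
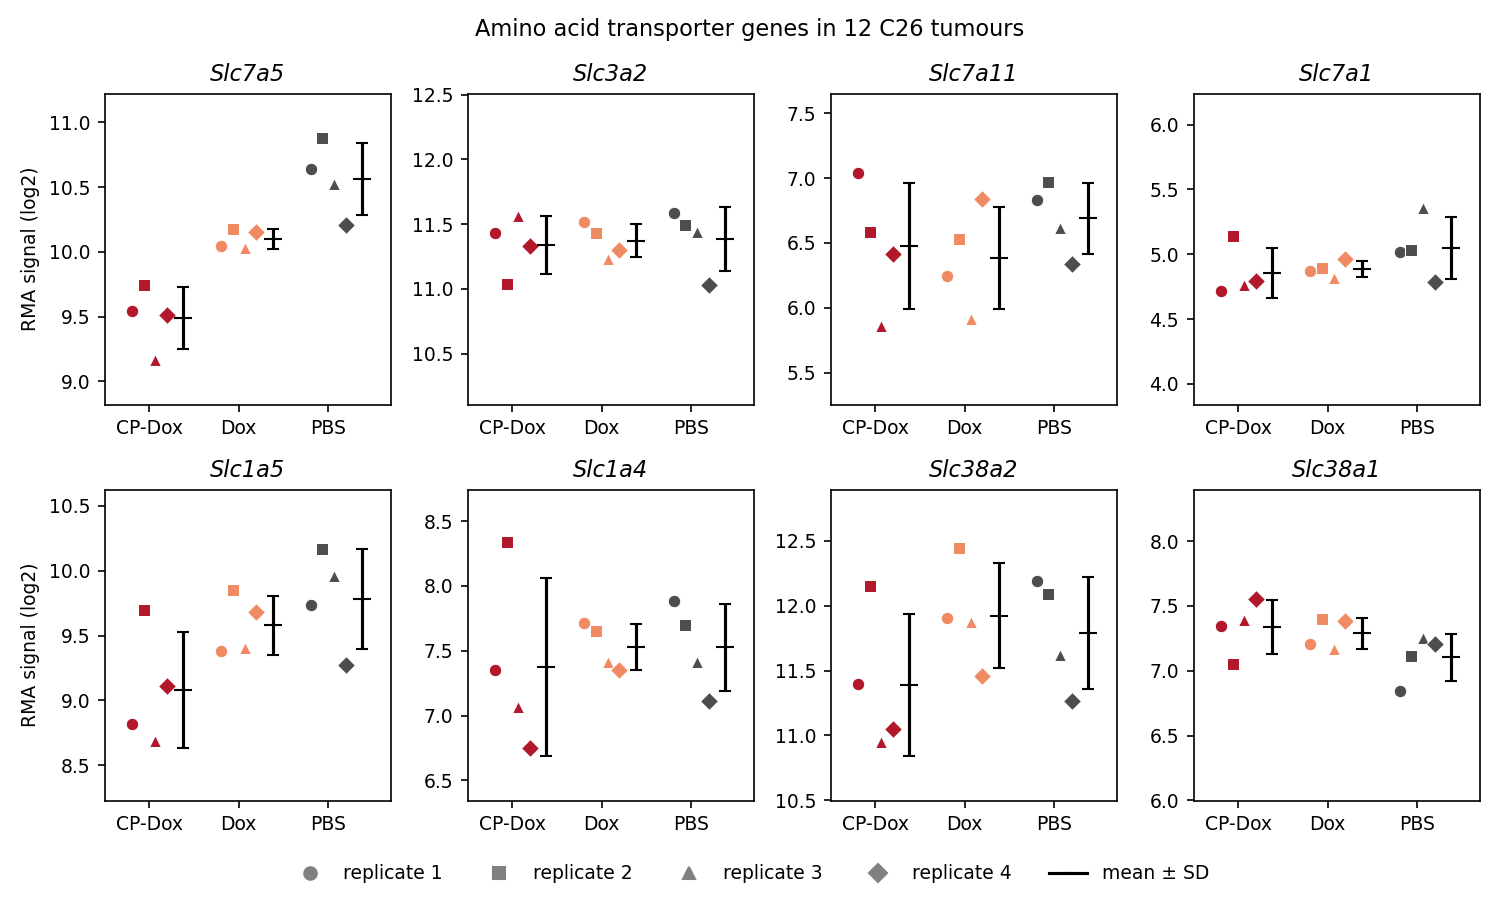
RMA signals (log2, vertical axis) of the 8 transporter genes in CP-Dox, Dox and PBS tumours (horizontal axis). Each symbol is 1 tumour, its shape gives the replicate number, black bars give mean ± SD, and all panels span the same range of 2.4 log2 units. The groups do not overlap for Slc7a5, although Dox replicate 2 and PBS replicate 4 lie close together and only CP-Dox against PBS passed after adjustment. They overlap for the other genes.

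In CP-Dox tumours, 1 of the 8 transporter genes fell relative to PBS and none rose. It was Slc7a5, the leucine exchanger gene. Over all genes 5.58% changed in this comparison, 3.23% downward (limma, adjusted p under 0.05). Slc7a5 was also the 1 member whose CP-Dox and PBS tumours did not overlap, beside 12.1% of all genes (7.75% in the downward direction). The other 7 genes did not pass the test, among them Slc3a2, which encodes the partner of the Slc7a5 protein. The median log2 fold change of the 8 genes was -0.20, beside -0.04 over all genes.

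Slc7a5 had signals of 9.54, 9.74, 9.16 and 9.51 in CP-Dox replicates 1 to 4, of 10.04, 10.18, 10.03 and 10.16 in Dox replicates 1 to 4, and of 10.64, 10.88, 10.53 and 10.21 in PBS replicates 1 to 4. Every CP-Dox tumour lay below every Dox tumour, and every Dox tumour lay below every PBS tumour, although Dox replicate 2 and PBS replicate 4 lay close together. Group means were 9.49 ± 0.24 in CP-Dox, 10.10 ± 0.08 in Dox and 10.56 ± 0.28 in PBS tumours (SD, n = 4 each). This full order without overlap was found for 40 of 12393 genes, or 0.323%, and for 1 of the 8 transporters. Only this order, the one Slc7a5 showed, was counted, so the share leaves out genes with the groups in another order. Against PBS, Slc7a5 fell by 1.07 ± 0.15 in CP-Dox tumours, to a level 2.10-fold lower (95% interval -1.39 to -0.75, limma adjusted p = 0.00419). Its p ranked 35th of 12393. In bulk tumour RNA, fewer cells that express a gene and less RNA per cell cannot be told apart.

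The call for Slc7a5 was kept when any single array was left out, with log2 fold changes from -1.19 to -0.96 and adjusted p up to 0.0167. It was lost with skin markers as a covariate (-0.91, limma adjusted p = 0.0503) and without CP-Dox replicates 1 and 3, the tumours with skin markers (-0.94, limma adjusted p = 0.0838), where CP-Dox was left with 2 arrays and 2 of all genes passed. Of 11 measured markers of proliferation 1 fell, the cyclin A2 gene Ccna2 (list median -0.74), and their mean relative to PBS ranged from -1.83 to -0.25 in CP-Dox, from -0.54 to -0.19 in Dox and from -0.18 to 0.15 in PBS tumours. The lowest value was that of CP-Dox replicate 2 alone. The CP-Dox mean was -0.71 with it and -0.33 without it, beside -0.30 in Dox tumours. Their part in the fall of Slc7a5 was not tested.

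**Figure D2:**
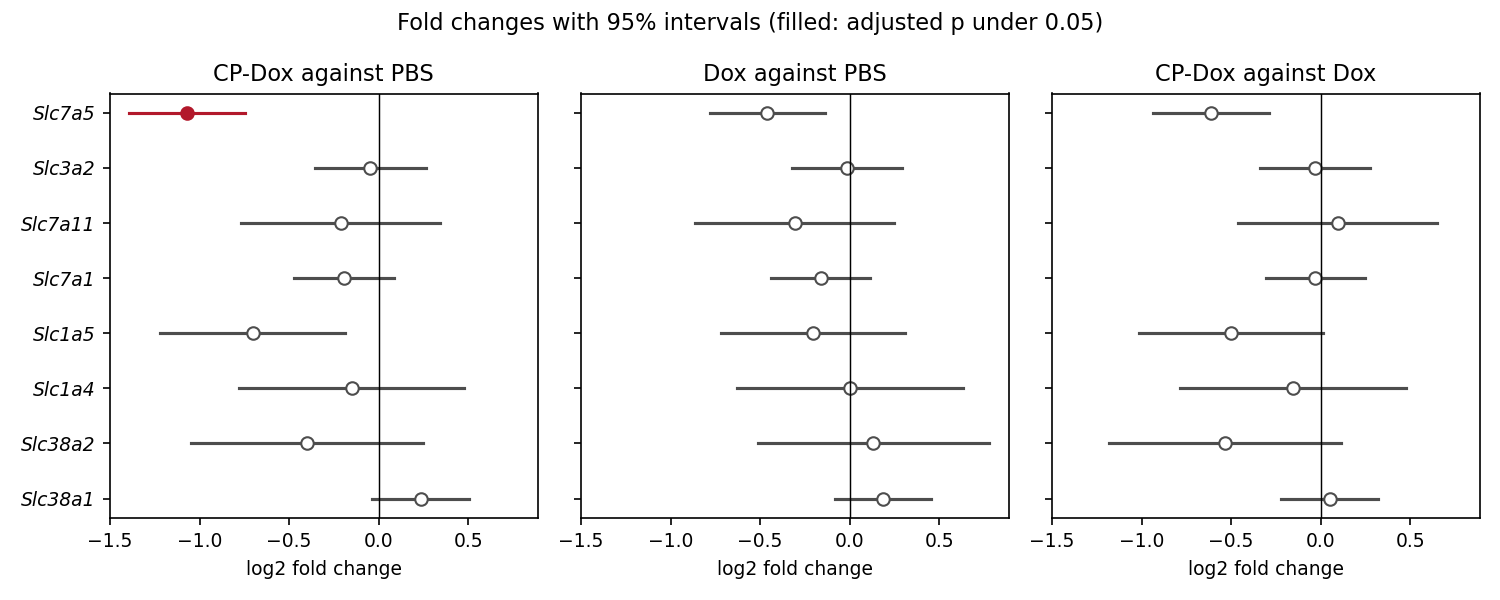
Log2 fold changes (horizontal axis) of the 8 transporter genes (vertical axis) in the 3 comparisons, with 95% intervals of the limma fit, n = 4 tumours per group. The filled symbol of Slc7a5 at -1.07 in CP-Dox against PBS is the only one with an adjusted p under 0.05, and the interval of Slc7a5 lies below 0 in all 3 panels.

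Free Dox changed none of the 8 genes, and 0% of all genes passed (limma, adjusted p under 0.05). At an unadjusted p under 0.05 the count was 1 of 8, beside 4.5% of all genes (2.54% downward). That gene was Slc7a5, at -0.46 ± 0.15 relative to PBS (95% interval -0.78 to -0.14, unadjusted p = 0.00915, limma adjusted p = 0.995). Slc7a5 was also the 1 transporter without overlap between Dox and PBS tumours, beside 3.84% of all genes (2.13% downward).

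Between the drug forms, 0 of 8 genes passed, beside 0.226% of all genes, 0.0565% upward and 0.169% downward (limma, adjusted p under 0.05). At an unadjusted p under 0.05 the count was 1 of 8, beside 16.1% of all genes (9.39% downward). Slc7a5 differed by -0.61 ± 0.15 between CP-Dox and Dox tumours (95% interval -0.93 to -0.29, unadjusted p = 0.00145, limma adjusted p = 0.105). It was again the 1 transporter without overlap, beside 9.63% of all genes (6.34% downward). Without CP-Dox replicate 2 the difference was -0.69 (limma adjusted p = 0.0215), in a fit in which 9.28% of all genes passed. The difference also passed with array weights (-0.63, limma adjusted p = 0.0076), where 1960 of 12393 genes passed. It did not pass with skin markers as covariate (-0.46, limma adjusted p = 0.577) or with muscle markers as covariate (-0.52, limma adjusted p = 0.160). Nor did it pass without the CP-Dox arrays with skin markers (-0.48, limma adjusted p = 0.719).

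Slc3a2, the heavy chain gene, had signals of 11.43, 11.04, 11.56 and 11.33 in CP-Dox, 11.52, 11.43, 11.23 and 11.30 in Dox, and 11.59, 11.49, 11.44 and 11.03 in PBS tumours. The groups overlapped throughout. The log2 fold change was -0.05 ± 0.14 for CP-Dox against PBS (95% interval -0.35 to 0.26), -0.02 ± 0.14 for Dox against PBS (-0.32 to 0.29) and -0.03 ± 0.14 for CP-Dox against Dox (-0.34 to 0.28). The direction in CP-Dox against PBS turned to 0.05 without CP-Dox replicate 2 and to 0.02 without PBS replicate 1.

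The difference between Slc7a5 and Slc3a2 within an array (Slc7a5 minus Slc3a2) was taken after the values had been seen and is given as a description. It was -1.89, -1.30, -2.40 and -1.82 in CP-Dox, between -1.48 and -1.15 in Dox, and -0.95, -0.62, -0.92 and -0.82 in PBS tumours. CP-Dox and Dox tumours lay below all PBS tumours, and CP-Dox replicate 2 lay within the range of the Dox tumours.

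Slc7a11 is the cystine exchanger gene with a match to the letters of the ATF4 element on each strand. It had signals of 7.04, 6.59, 5.86 and 6.42 in CP-Dox, 6.25, 6.53, 5.91 and 6.84 in Dox, and 6.83, 6.97, 6.62 and 6.34 in PBS tumours. The range of values within each group exceeded the distances between the group means. Log2 fold changes were -0.21 ± 0.25 for CP-Dox against PBS (95% interval -0.77 to 0.34), -0.31 ± 0.25 for Dox against PBS (-0.86 to 0.25) and 0.09 ± 0.25 for CP-Dox against Dox (-0.46 to 0.65). None passed (limma adjusted p from 0.629 to 0.995).

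Slc7a1, the arginine and lysine carrier gene, was dim on these arrays, at 4.72, 5.14, 4.77 and 4.79 in CP-Dox, 4.87, 4.89, 4.82 and 4.96 in Dox, and 5.01, 5.04, 5.36 and 4.79 in PBS tumours. Its log2 fold changes were -0.19 ± 0.13 for CP-Dox against PBS, -0.16 ± 0.13 for Dox against PBS and -0.03 ± 0.13 between CP-Dox and Dox. The groups overlapped, and none of the 3 differences passed (limma adjusted p from 0.372 to 0.995). Slc7a1 and Slc7a11 were among the dimmest 40% of genes.

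Slc1a5, the glutamine exchanger gene, gave the next largest difference from PBS. Its signals were 8.82, 9.70, 8.69 and 9.11 in CP-Dox, 9.38, 9.85, 9.40 and 9.68 in Dox, and 9.73, 10.16, 9.96 and 9.27 in PBS tumours. CP-Dox replicates 1, 3 and 4 lay below all PBS tumours, and CP-Dox replicate 2 lay among them. The log2 fold change of -0.70 ± 0.24 for CP-Dox against PBS (95% interval -1.22 to -0.19) did not pass after adjustment (unadjusted p = 0.0116, limma adjusted p = 0.104). At an unadjusted p under 0.05, 2 of the 8 genes were counted in this comparison, beside 23.5% of all genes. Without CP-Dox replicate 2, Slc1a5 was at -0.91 ± 0.20 (limma adjusted p = 0.0113), and the count of transporters that fell was 2, in a fit in which 19.1% of all genes passed (9.17% downward). Slc1a5 also passed with array weights (-0.93, limma adjusted p = 0.00557), in a fit in which 2665 of 12393 genes passed. The difference was -0.39 with skin markers as covariate (limma adjusted p = 0.559). Without CP-Dox replicates 1 and 3 it was -0.38 (limma adjusted p = 0.653).

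For Dox against PBS, Slc1a5 was at -0.20 ± 0.24 (95% interval -0.72 to 0.31), and for CP-Dox against Dox at -0.50 ± 0.24 (-1.02 to 0.01). CP-Dox replicate 2 also had the highest Krt18 and Krt8 signals of all arrays, 10.33 and 12.05, compared with 5.74 to 6.88 and 9.17 to 9.97 in the other CP-Dox tumours. The same array had the lowest mean of all 12 for the markers of proliferation (-1.83), T cells (-0.83) and macrophages (-0.50), each relative to the PBS mean. The part of these differences in the Slc1a5 values was not tested.

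Slc1a4, the alanine and serine exchanger gene with 1 match to the letters of the ATF4 element, was measured by 3 probe sets. On the brightest, signals were 7.35, 8.34, 7.06 and 6.75 in CP-Dox, 7.71, 7.65, 7.41 and 7.35 in Dox, and 7.88, 7.70, 7.41 and 7.12 in PBS tumours. CP-Dox held both the highest and the lowest tumour of all 12, which gave it an SD of 0.69, beside 0.18 in Dox and 0.34 in PBS. The log2 fold change was -0.15 ± 0.29 for CP-Dox against PBS, 0.00 ± 0.29 for Dox against PBS and -0.15 ± 0.29 for CP-Dox against Dox. The probe sets disagreed in sign for CP-Dox against PBS, at -0.13, -0.15 and 0.15, and none passed when all 20380 probe sets were tested (limma adjusted p from 0.753 to 0.788, with 5.39% of all probe sets called, 3.21% downward). CP-Dox replicate 2 was the highest CP-Dox tumour on all 3, at 8.23, 8.34 and 8.10. Without it the brightest probe set was at -0.47 ± 0.19 (limma adjusted p = 0.109).

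Slc38a2, the glutamine and alanine transporter gene, had signals of 11.40, 12.16, 10.95 and 11.05 in CP-Dox, 11.90, 12.45, 11.88 and 11.46 in Dox, and 12.19, 12.09, 11.62 and 11.26 in PBS tumours. Replicate 2 was again the highest CP-Dox tumour, and CP-Dox replicates 3 and 4 were lower than any tumour of the other groups. The log2 fold change was -0.40 ± 0.30 for CP-Dox against PBS (95% interval -1.05 to 0.25) and 0.13 ± 0.30 for Dox against PBS (-0.51 to 0.78). For CP-Dox against Dox it was -0.53 ± 0.30 (-1.18 to 0.11). Without CP-Dox replicate 2 the first of these was -0.66 ± 0.26 (limma adjusted p = 0.0965).

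Slc38a1, its close relative, was the 1 gene of the 8 with a positive difference between CP-Dox and PBS. Signals were 7.35, 7.06, 7.40 and 7.56 in CP-Dox, 7.21, 7.40, 7.17 and 7.38 in Dox, and 6.84, 7.12, 7.25 and 7.20 in PBS tumours. CP-Dox replicate 2 was here the lowest of its group. The log2 fold change was 0.23 ± 0.12 for CP-Dox against PBS (95% interval -0.04 to 0.50, limma adjusted p = 0.271) and 0.19 ± 0.12 for Dox against PBS (-0.08 to 0.45). Between CP-Dox and Dox it was 0.05 ± 0.12, and this direction turned to -0.00065 after a further quantile normalization and to -0.0039 with arrays centred on their medians.

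**Figure D3:**
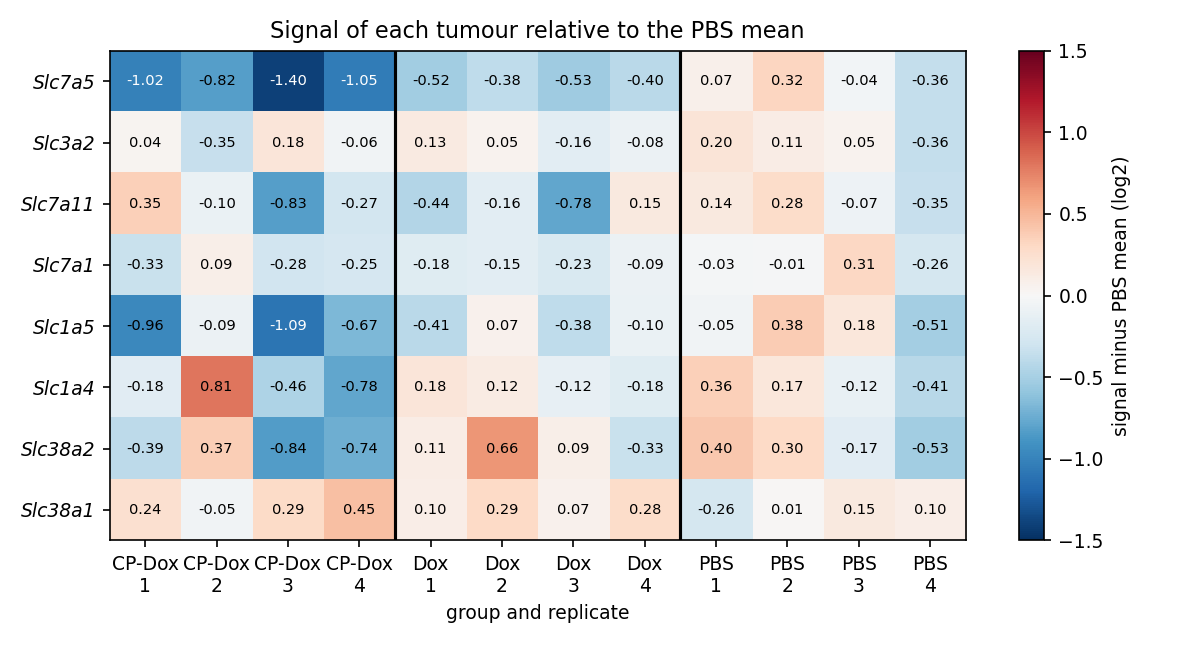
Signal of each tumour minus the PBS mean (log2, colour and printed value) for the 8 transporter genes (rows) in 12 tumours (columns, by group and replicate). Slc7a5 is below the PBS mean in all CP-Dox and Dox tumours, and CP-Dox replicate 2 is the highest CP-Dox tumour for Slc1a5, Slc1a4 and Slc38a2.

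Some tumours were the extreme of their group for several transporters. CP-Dox replicate 2 was the highest CP-Dox tumour for 5 of the 8 genes, beside 40.2% of all genes, and the lowest for 2, Slc3a2 and Slc38a1, beside 29.9%. CP-Dox replicate 3 was the lowest for 4, beside 26.1% of all genes. Dox replicate 3 was the lowest Dox tumour for 5, beside 20.6%, and Dox replicate 2 the highest for 4, beside 29.7%. PBS replicate 4 was the lowest PBS tumour for 7 of the 8 genes, beside 28.3% of all genes. The pooled SD within groups was 0.22 for Slc7a5 and 0.21 for Slc3a2, beside a median of 0.18 over all genes, and it was larger for Slc38a2 (0.46), Slc1a4 (0.45), Slc7a11 (0.39) and Slc1a5 (0.37).

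Related transporters were compared across the 12 arrays after removal of the group means, as 4 pairs. Slc3a2 and Slc7a5 gave Pearson r = 0.08 (exact permutation within groups, p = 0.849) and Spearman rho = 0.10 (exact permutation p = 0.795). Slc3a2 and Slc7a11 gave r = 0.11 (exact permutation p = 0.752) and rho = 0.06 (exact permutation p = 0.868). For Slc1a4 and Slc1a5, r was 0.63 (exact permutation p = 0.102, adjusted p = 0.204 over the 4 pairs) and rho was 0.48 (exact permutation p = 0.187, adjusted p = 0.373). For Slc38a1 and Slc38a2, r was -0.65 (exact permutation p = 0.0608, adjusted p = 0.204) and rho was -0.53 (exact permutation p = 0.120, adjusted p = 0.373). No pair passed the threshold. Without the 2 arrays farthest from the median of the first gene, r was -0.16, -0.06, 0.54 and -0.27 in that order of pairs. For Slc38a1 and Slc38a2 the arrays left out were CP-Dox replicate 2 and PBS replicate 1. Leaving out the extremes of 1 gene narrows its range, which can itself bring r nearer to 0. The smaller r therefore does not show that the relation rested on these arrays. A group of 4 arrays is too small for a separate correlation.

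Each transporter was also compared with 12385 other genes over the 12 arrays. Here the group means were not removed, so differences between the treatments enter the correlations. The gene most like Slc7a5 was Tomm40, which encodes the channel of the mitochondrial outer membrane import complex (Pearson r = 0.98, Spearman rho = 0.92). Slc1a5 was most like Slc7a3, which encodes a carrier of cationic amino acids (0.97 and 0.94), and Slc38a2 was most like Zfp131 (0.99 and 0.98). The closest genes were Fgd6 for Slc1a4 (0.95 and 0.92), Sorl1 for Slc38a1 (0.95 and 0.99), Tpm1 for Slc7a1 (0.90 and 0.87), Cdk5rap2 for Slc3a2 (0.88 and 0.72) and Asgr2 for Slc7a11 (0.82 and 0.85). These are the highest of 12385 values each and share the same arrays, so they serve as a description.

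The counts of related genes that follow are to be read against the 2.35% of all genes that rose and the 3.23% that fell in CP-Dox against PBS, and their medians against -0.04. Of 25 other amino acid transporter genes measured, 1 rose and 0 fell in CP-Dox against PBS, and their median log2 fold change was -0.05. It was Slc6a6, which encodes the taurine transporter, at 9.89, 9.99, 9.79 and 9.58 in CP-Dox, 8.51, 8.83, 8.97 and 9.06 in Dox, and 9.54, 9.10, 8.66 and 8.93 in PBS tumours. Every CP-Dox tumour exceeded every Dox and PBS tumour. Slc6a6 rose by 0.75 ± 0.18 against PBS (limma adjusted p = 0.0365), and differed by 0.97 ± 0.18 from Dox (limma adjusted p = 0.0578). The count of 1 was 0 in 7 of the 12 fits that left out a single array, namely CP-Dox replicates 1 and 3, Dox replicates 2 and 3, and PBS replicates 2, 3 and 4. It was also 0 with skin markers as covariate, with the mean of each gene's probe sets and with the compared groups alone. In the fit without CP-Dox replicate 2 the changed genes numbered 6, 4 up and 2 down, where 19.1% of all genes passed. With all 12 arrays none of the 25 passed in the other comparisons. The lowest p was at Slc3a1 (0.37 ± 0.12) between Dox and PBS and at Slc6a6 between CP-Dox and Dox. Without CP-Dox replicate 2, 6 of the 25 passed between CP-Dox and Dox, 4 up and 2 down, where 9.28% of all genes passed.

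Among 27 measured factors and targets of the ATF4 stress response, 7 fell and 4 rose in CP-Dox against PBS (median -0.30). The falls included enzymes of serine and one-carbon metabolism: Phgdh, the first enzyme of serine synthesis, fell by 1.15 ± 0.09 and Shmt2 fell by 1.19 ± 0.17 (limma adjusted p = 4.09e-04 and 0.00483). Vldlr, a lipoprotein receptor gene, rose by 1.95 ± 0.26. Atf4 itself was at -0.36 ± 0.17 and the asparagine synthetase gene Asns at -0.79 ± 0.25, and neither passed (limma adjusted p = 0.234 and 0.0908). With CP-Dox replicate 2 left out, 14 fell and 7 rose, where 19.1% of all genes passed, and without CP-Dox replicates 1 and 3, 1 fell. Over the 12 fits without a single array the changed genes numbered 5 to 21 in CP-Dox against PBS. In CP-Dox against Dox, Phgdh and Shmt2 fell (by 0.92 ± 0.09 and 1.02 ± 0.17), beside 0.169% of all genes that fell. There the list gave 9 falls and 3 rises without CP-Dox replicate 2, where 9.28% of all genes passed. It gave 0 calls without CP-Dox replicates 1 and 3, where 0 of all genes passed, and 1 to 12 without single arrays. In Dox against PBS 0 of 27 passed, with the lowest p at Pck2 (-0.36 ± 0.10).

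Genes of amino acid sensing and of the kinase complex mTORC1, which include its subunits, regulators and substrates, gave 3 rises and 0 falls among 22 measured (median 0.14). They were Sesn2 (0.80 ± 0.16), which encodes a leucine sensor and is also a p53 target, its relative Sesn3 (0.55 ± 0.11) and Castor2 (0.57 ± 0.09), a relative of the arginine sensor gene. Sesn2 signals were 8.40, 8.13, 8.54 and 8.36 in CP-Dox, 8.26, 8.12, 8.08 and 7.86 in Dox, and 7.90, 7.78, 7.40 and 7.18 in PBS tumours. Every CP-Dox tumour lay above every PBS tumour. Sesn2 was also counted in the ATF4 list. Of 22 measured genes of aminoacyl-tRNA synthetases, which load amino acids onto tRNA, and their scaffold, 2 fell (list median -0.23). All are cytosolic except the mitochondrial Fars2. The scaffold gene Aimp2 fell by 0.70 ± 0.13 and Farsb fell by 0.50 ± 0.13. Without single arrays the changed genes numbered 1 to 6 in each of these lists.

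Of 13 genes of glutamine and glutamate enzymes, 1 fell, the proline dehydrogenase gene Prodh, by 0.42 ± 0.09 (median -0.05). Of 17 genes of cystine use, glutathione and NRF2, 1 rose, Bach1, which encodes a repressor of antioxidant genes, by 0.44 ± 0.10 (median -0.13). In the Myc network 1 of 13 fell, Mxd3, by 0.84 ± 0.21 (median 0.08), and Myc itself was at -0.89 ± 0.30 (limma adjusted p = 0.112). These counts are for CP-Dox against PBS. With all 12 arrays, the 5 lists of this and the preceding paragraph gave no call in Dox against PBS or in CP-Dox against Dox. They gave no call in CP-Dox against PBS without CP-Dox replicates 1 and 3. Without CP-Dox replicate 2, CP-Dox against Dox gave 6 calls among the synthetases, 4 in the cystine list and 3 in the glutamine list. The sensing list gave 1 and the Myc network 0, where 9.28% of all genes passed. In CP-Dox against PBS without single arrays the counts ranged from 0 to 5 for the glutamine list, 0 to 5 for the cystine list and 0 to 2 for the Myc network. The lists had no test of their own.

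**Figure D4:**
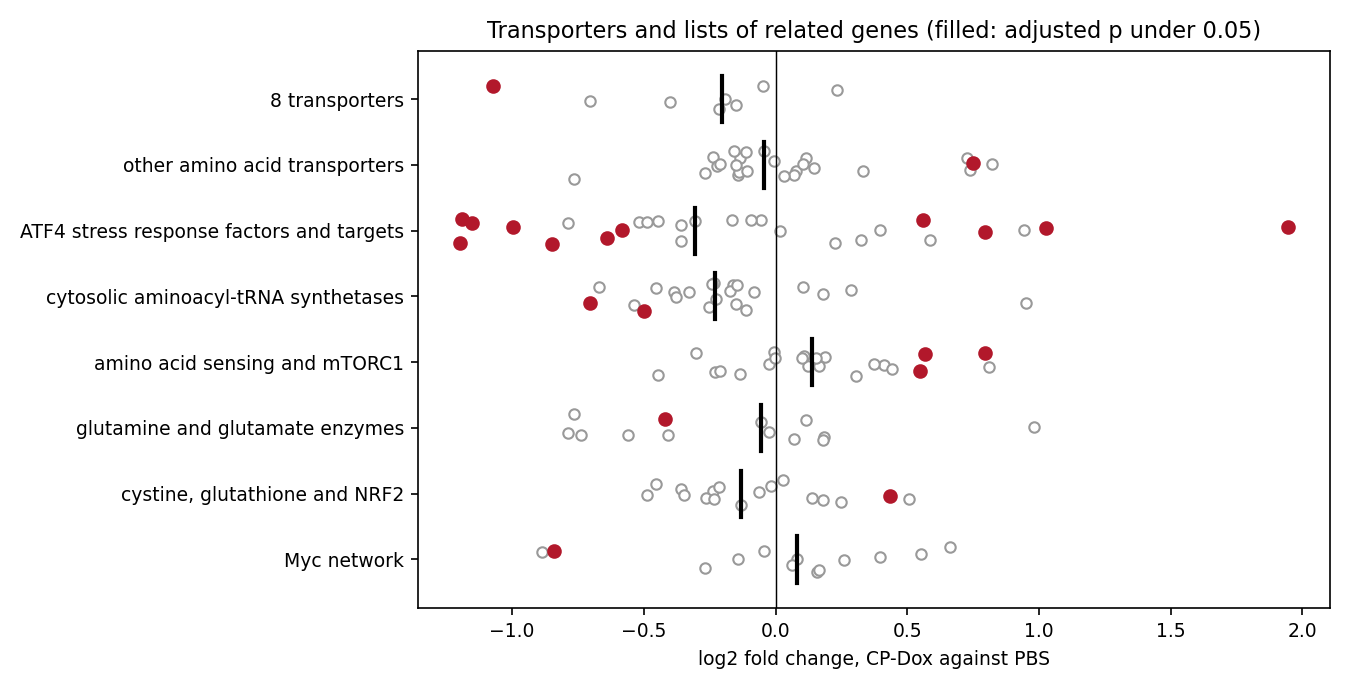
Log2 fold changes of CP-Dox against PBS (horizontal axis) for the 8 transporters and 7 lists of related genes (rows). Each circle is 1 gene, filled circles have an adjusted p under 0.05, and black bars give the median, which is -0.20 for the 8 transporters and -0.30 for the ATF4 list.

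Markers of other cells differed between CP-Dox and PBS tumours as well. Of 11 mast cell markers 9 rose (list median 1.61), and of 11 endothelial markers 3 rose (list median 0.40). Of 10 T cell markers 1 rose, Thy1 (list median 0.19). Of 11 colon epithelial markers 1 rose, Cdh1, which was highest in the tumours with skin markers (list median 0.01). Of 4 erythroid markers 1 fell, Alas2 (list median -0.30). None of 11 macrophage, 15 muscle and 14 skin markers passed (list medians 0.13, 0.58 and 1.51). The part of these cells in the transporter values was not tested beyond the covariate fits for skin and muscle markers. In CP-Dox against PBS, Slc7a5 was at -1.04 with muscle markers as covariate (limma adjusted p = 0.00628). With skin markers it was at -0.91 and did not pass (limma adjusted p = 0.0503). The mast cell, endothelial and other marker lists had no covariate fit.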

How the data were processed

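RNA from 12 tumours was hybridized as biotinylated cRNA to short-oligonucleotide arrays. The authors deposited log2 signals, and the submitters' processing notes name RMA and Partek, without versions. The table held 22690 probe sets. Controls (64), probe sets with several symbols (691) and with none (1555) were left out. Symbols came from the platform annotation, and 20351 of 20380 gene identifiers were found in the RefSeq table (0 symbols changed).

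A linear model with a mean per group was fitted over all 12 arrays with limma 3.58.1 in R 4.3.3, without further normalization, and two-sided p values were adjusted by Benjamini and Hochberg over 12393 genes. The number of arrays limits the precision. Replicate numbers name separate mice. The alternatives were array weights, a further quantile normalization or median centring, a filter on dim genes, another choice of probe set, robust limma-trend, a stricter threshold, muscle or skin markers as covariate, the replicate block, the compared groups alone and leaving out arrays. Figures were drawn with matplotlib 3.10.9.

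The transporters, the 7 lists of related genes, the 9 marker lists (16 genes under older symbols) and the alternatives were chosen with earlier results of these data known. Named genes are the 8 transporters, up to 3 genes with the lowest p past the threshold per list, or the 1 with the lowest p, and the gene most like each transporter. Atf4, Asns, Myc, Fars2, the colon epithelial genes and the marker genes with a call were named after their values were seen.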

Additional observations from a re-analysis of the deposited data

How the results depend on the processing

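Of 594 values of the 8 genes under alternatives, 35 turned direction. All 35 lay within 0.14 of 0 and had an adjusted p of at least 0.745. Many of the 594 repeat the main fold change by construction and could not turn. Examples are fits without an array of the group not compared, with the replicate block, robust limma-trend, the stricter threshold or the compared groups alone. The share that turned is therefore no measure of how stable the directions are. The count of transporters changed in CP-Dox against PBS, 1, was 3 with array weights (Slc7a5, Slc1a5 at -0.93 and Slc7a1 at -0.33), 2 with the replicate block (Slc7a5 and Slc1a5), 0 with skin markers as covariate, 0 without the CP-Dox arrays with skin markers, and 1 to 2 without single arrays. The count in CP-Dox against Dox, 0, was 2 with array weights (Slc7a5 and Slc1a5) and 0 to 1 without single arrays. Member probe sets changed without single arrays numbered 1 to 2 in CP-Dox against PBS and 0 to 2 in CP-Dox against Dox. Dox against PBS stayed at 0 for both under each alternative run. The replicate block changed no other call of the 8 genes. Deviations of same-numbered CP-Dox and PBS arrays correlated at 0.02 to 0.35 and did not exceed 0.1 in every pair, so the numbers were not taken to pair the arrays. All genes changed in CP-Dox against PBS numbered 691, but 2665 with array weights, 42 with skin markers as covariate, 198 with the compared groups alone, 143 at an adjusted p under 0.01, 2 without the arrays with skin markers, and 214 to 2363 without single arrays. In CP-Dox against Dox they numbered 28, but 1960 with array weights, 44 after quantile normalization, 47 with the dim-gene filter, 48 with muscle markers as covariate, 11 with the probe set of largest interquartile range, 8 with the replicate block, 1 with skin markers as covariate, 0 with the compared groups alone, 0 without the arrays with skin markers, 1 at an adjusted p under 0.01, and 1 to 1150 without single arrays. The causes were not tested.

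Turned values in CP-Dox against PBS were, for Slc1a4, 0.00032 with skin markers as covariate and 0.016 without the arrays with skin markers, and without single arrays -0.47 to 0.056. For Slc3a2 they ranged from -0.17 to 0.054 without single arrays. In Dox against PBS, Slc1a4 was at -0.061 with array weights and -0.10 with muscle markers as covariate, and without single arrays Slc1a4 ranged from -0.14 to 0.12, Slc3a2 from -0.13 to 0.051 and Slc38a2 from -0.043 to 0.29. In CP-Dox against Dox, Slc7a1 was at 0.037 after quantile normalization, 0.060 with skin markers as covariate and 0.082 without the arrays with skin markers (-0.13 to 0.015 without single arrays). Slc3a2 was at 0.054 with array weights and 0.0088 with muscle markers (-0.11 to 0.069), Slc1a4 at 0.0038 with muscle markers and 0.014 without the arrays with skin markers (-0.47 to 0.055), Slc38a1 at -0.00065 after quantile normalization, -0.0039 after median centring and -0.056 with muscle markers (-0.023 to 0.14), and Slc7a11 at -0.094 to 0.30 without single arrays. Among the pairs, r without the 2 farthest arrays was -0.16 for Slc3a2 with Slc7a5, -0.063 for Slc3a2 with Slc7a11 and -0.27 for Slc38a1 with Slc38a2.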
